A study of Homo sapiens with 27 samples.

Results

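The comparison described here set MDA-MB-231 cells carrying the dCas9-KRAB lentiviral vector without any guide RNA (the No gRNA group) against the untransduced wild type cells of the same line. MDA-MB-231 is a mesenchymal, claudin-low triple negative breast cancer (TNBC) line. The members are 6 RNA-seq libraries of the 27 in the series, 3 for No gRNA and 3 for wild type, taken by their labels. The No gRNA cells had been transduced with a vector that expresses dCas9 fused to the KRAB repressor domain from a constitutive promoter, followed by a puromycin resistance gene, and were selected with puromycin at 0.75 µg/mL, beginning on day 4 after transduction. The wild type cells received neither virus nor drug, so vector, transduction and selection cannot be told apart. 2 further MDA-MB-231 groups of 3 libraries carried the same vector with gRNAs against ZEB1 and are called set 1 and set 2 here, because the column names and the sample titles assign the gRNA 4 and all-gRNA labels differently. The labels call the 3 libraries of a group biological replicates, and the methods of the study call them individual clones. All of these libraries belonged to the second sequencing run. SUM159 is another mesenchymal TNBC line, and its No gRNA and wild type groups of 3 libraries each from the first run gave the only comparison with separate controls. 3 more wild type SUM159 libraries came from the second run and entered no test here. SUM159 was grown in F12 medium with insulin and hydrocortisone and selected with 1.25 µg/mL puromycin, and MDA-MB-231 was grown in high glucose DMEM.

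Catalytically dead Cas9 binds DNA where a guide RNA directs it, and the KRAB domain recruits the corepressor TRIM28 with histone methyltransferases and deacetylases. Without a guide the fusion has no designed target, and a No gRNA culture is the usual reference for gene silencing by this system. Several programs treated below respond to the state of a culture in general. ATF4 is the transcription factor of the amino acid and integrated stress responses, E2F factors drive genes of DNA replication, and heat shock factor drives cytosolic chaperones.

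Estimated counts summed to 15461200 to 17124402 in the wild type libraries and 17039679 to 17288989 in the No gRNA libraries. Levels are given as CPM, that is counts relative to library size corrected by the trimmed mean method (TMM) over the 12 MDA-MB-231 libraries, and fold changes are on the log2 scale, No gRNA minus wild type. A gene was called where the TREAT test of voom-limma found a change beyond a log2 fold change of 1 at a Benjamini-Hochberg adjusted p under 0.05. The moderated limma test against 0 was the second criterion, and adjusted p-values below come from TREAT unless named otherwise. Correlations of log2 CPM ran from 0.98 to 0.982 within either group and from 0.946 to 0.949 between them. No gRNA replicate 1 had 2.388% of its counts in long noncoding RNA genes, against 1.268% to 1.553% in the other 5 libraries, and 481 genes were called without it.

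ZNF10 encodes KOX1, from which the KRAB domain of such fusions is commonly taken, and had the largest rise of all tested genes. ZNF10 (ENSG00000256223, chromosome 12, 133130575 to 133159465, GRCh38, GENCODE annotation) stood at 1.23, 1.90 and 2.81 CPM in the wild type libraries and at 297, 292 and 269 CPM in No gRNA. Every No gRNA library was far above every wild type library, and the log2 fold change was 7.21 (SE 0.29, adjusted p = 7.53e-08). Reads of the endogenous gene and of a KRAB domain in the vector cannot be told apart at the gene level. The other vector-carrying groups held like levels, with 339 ± 26.2 CPM (SD, n = 3) in set 1 and 298 ± 6.63 CPM (SD, n = 3) in set 2. In SUM159 the mean rose from 1.65 ± 0.513 to 354 ± 13.5 CPM (SD, n = 3 each, adjusted p = 1.17e-13), and the effect of the vector did not pass the test of a difference between the lines (-0.49 on the log2 scale, adjusted p = 1).

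ZEB1 (ENSG00000148516, chromosome 10, 31318495 to 31529814), the transcription factor of epithelial-mesenchymal transition that the guides of the other groups target, was higher with the empty vector. The wild type libraries held 78.2, 69.5 and 73.9 CPM and the No gRNA libraries 106, 124 and 106 CPM, without overlap. The log2 fold change was 0.60 (SE 0.08), which passed the moderated limma test (adjusted p = 5.16e-05) and not TREAT (adjusted p = 1). The exact two-sided permutation test gave p = 0.1, the smallest that 3 against 3 libraries allow. The antisense gene ZEB1-AS1 held 7.25, 5.90 and 5.26 CPM in wild type and 7.43, 8.61 and 5.59 CPM in No gRNA, and its change of 0.23 did not pass the moderated limma test (adjusted p = 0.498). Set 1 and set 2 had ZEB1 at 5.44 and 4.84 CPM (n = 3 each).

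Markers of the line were present in both groups, but their levels moved. Of 11 line and subtype markers tested, 5 passed the moderated test as higher and 6 as lower, and KRT8 was called lower. The markers given next were picked after their values were seen. VIM (vimentin) averaged 2629 CPM in wild type and 2425 CPM in No gRNA, CD44 averaged 1362 and 1906 CPM, and AXL averaged 1052 and 1191 CPM. ESR1 and PGR, the hormone receptors absent from TNBC, were too low to test, and CDH1 (E-cadherin) averaged 0.0858 CPM in wild type and 0.503 CPM in No gRNA. Of 5 markers of the packaging line HEK293, 4 were too low to test. Among 12 leukocyte and stromal markers 7 were tested and 0 were called. By the moderated test 5 were higher and 0 lower, with a median of 1.14. The higher ones included the stromal markers PDGFRB and PECAM1, while the leukocyte markers PTPRC and CD3E were too low to test. CD14, the higher marker with the largest change, was at 1.50, 1.44 and 0.809 CPM in wild type against 5.23, 5.61 and 3.48 CPM in No gRNA. The part of admixed cells in any result was not tested.

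In No gRNA cells TREAT called a small share of genes as changed beyond 2-fold, and many more passed the moderated test. A gene that was not called may still differ by more than 2-fold. Of the genes past the moderated test, 2308 had an estimated change over 2-fold. Of 15721 genes tested, 566 were called (3.60%), with 367 higher (2.33%) and 199 lower (1.27%) in No gRNA. The moderated test found 4112 genes higher (26.2%) and 4343 lower (27.6%). These shares over all tested genes are the background for the list counts below. The median log2 fold change over all tested genes was 0.001. The unadjusted TREAT p was under 0.05 for 1187 genes. In bulk RNA, fewer cells of a kind and less RNA per cell cannot be told apart.

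**Figure D1:**
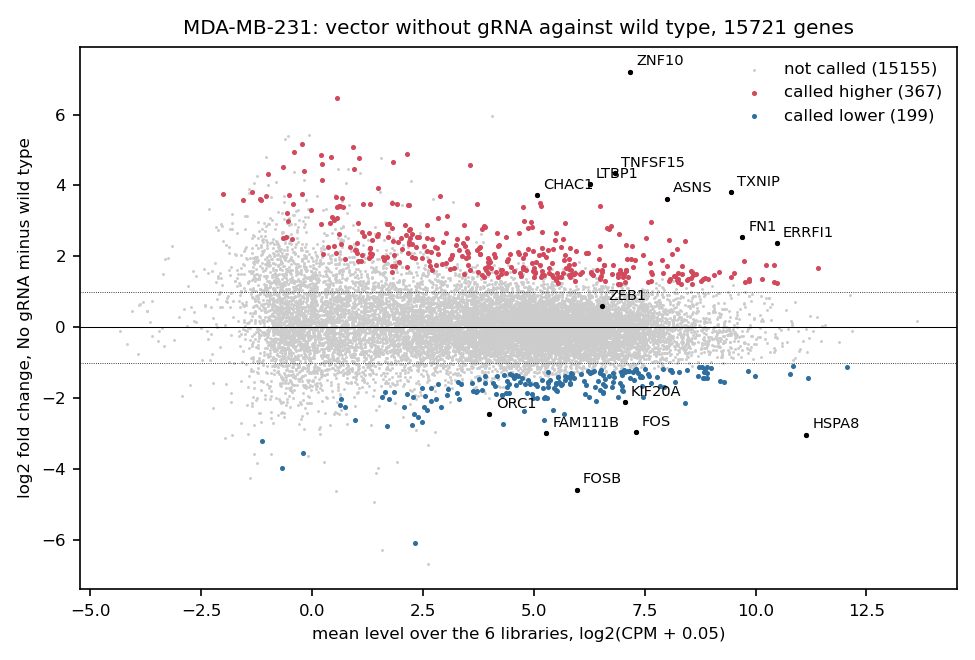
Log2 fold change of No gRNA against wild type MDA-MB-231 cells (y axis) against the mean level over the 6 libraries as log2(CPM + 0.05) (x axis), 1 point per gene for 15721 genes, with 15 named genes in black. The 367 genes called higher are red and the 199 called lower are blue, the dotted lines mark a log2 fold change of 1 in either direction, ZNF10 is the highest point at 7.21 and ZEB1 lies at 0.60, inside the lines.

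The 12 largest rises by the naming rule included ZNF10 and 11 other genes. TXNIP, a thioredoxin-binding protein that restrains glucose uptake, went from 91.7, 95.7 and 91.0 CPM to 1276, 1311 and 1325 CPM (log2 fold change 3.81, SE 0.05, adjusted p = 4.10e-11). TNFSF15, a cytokine of the TNF family, went from 10.7, 10.5 and 10.4 CPM to 211, 219 and 215 CPM (log2 fold change 4.35, SE 0.07, adjusted p = 5.08e-11). The replicates of both genes lay within a few percent of each other. LTBP1, which tethers latent TGF-beta to the matrix, rose by 4.04 from 8.73 to 144 CPM. ADM2, a peptide hormone of the adrenomedullin family, rose by 4.57 from 1.06 to 22.5 CPM.

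The remaining large rises started from almost nothing. NUPR1, a stress-induced chromatin protein, rose from 0.0630, 0.331 and 0.597 to 8.31, 8.86 and 8.06 CPM, and CA9, a carbonic anhydrase induced by hypoxia, from 0.0893, 0.144 and 0.107 to 4.79, 3.65 and 3.37 CPM. SLITRK6, GAS7, GBP5 and VLDLR-AS1 averaged 0.0816, 0.161, 0.348 and 0.306 CPM in wild type and 3.64, 3.56, 5.15 and 6.72 CPM in No gRNA. At such wild type levels a fold rests on few reads. The naming rule took only genes without overlap between the groups, so the lack of overlap here follows from the selection. SIK1, a kinase of the salt-inducible family, was at 0, 0 and 0 CPM in wild type and 4.30, 2.51 and 1.76 CPM in No gRNA. It has the near-identical copy SIK1B, so its assignment is uncertain, and its call was lost when any wild type library was left out.

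The 12 largest falls by the naming rule included 2 transcription factors of the AP-1 family and a chaperone. FOSB went from 134, 113 and 114 CPM to 4.91, 4.77 and 5.19 CPM (log2 fold change -4.59, SE 0.19, adjusted p = 2.17e-07) and FOS from 259, 272 and 304 CPM to 44.2, 26.0 and 39.9 CPM (log2 fold change -2.96, adjusted p = 9.44e-06). HSPA8, the constitutive HSP70 chaperone, is described with the heat shock genes. FAM111B, a protease whose transcript follows the cell cycle, fell from 70.2, 67.1 and 70.3 to 9.01, 9.26 and 7.74 CPM. MIR23AHG, the host transcript of a miRNA cluster, fell from 36.1, 34.4 and 32.9 to 5.22, 5.49 and 4.65 CPM. The low-level genes SYT16, MYB and LHX4 fell by 2.79, 2.63 and 2.54 on the log2 scale and lost their calls in 4 to 8 of 16 alternative analyses. DDX12B, an unprocessed pseudogene of a helicase family, and BCYRN1, a repeat-derived RNA, fell by 2.76 and 2.69, and their read assignment is uncertain.

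Promoter sequences were searched for 3 motifs, each known to bind a factor that drives one of the groups below. In the RefSeq promoters of GRCh38.p14, from 250 bases before the start to 50 after it, the amino acid response element TGATGNAA was found on either strand in 5 of the 21 promoters available for the ATF4 list, against 3.62% of all 35116 promoters and 1.71% of those of 11401 tested genes. The heat shock element GAANNTTCNNGAA lay in 3 of 12 promoters of the heat shock list, against 0.49% and 0.32%. An E2F site written as TTTCCCGC or TTTGGCGC lay in 19 of 40 promoters of the replication list, against 2.27% and 3.58%. The lists hold genes known to be driven by these factors, so such an excess says nothing about this comparison. Among called members with a promoter, the E2F site lay in 9 of 17, the amino acid response element in 3 of 13 and the heat shock element in 3 of 6. A match is a description of the letters and does not show binding. Windows of 30 bases around the matches are printed for some of the called members, with the matched letters in capitals.

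ASNS, chr7:97872458-97872487, minus strand: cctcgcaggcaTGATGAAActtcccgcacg
CHAC1, chr15:40953251-40953280, plus strand: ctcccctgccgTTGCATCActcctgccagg
HSPA8, chr11:123062345-123062374, minus strand: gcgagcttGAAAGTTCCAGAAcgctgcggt
HSPA8, chr11:123062170-123062199, minus strand: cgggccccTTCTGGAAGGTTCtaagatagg
CHORDC1, chr11:90223088-90223117, minus strand: cgcgaccgGAAAATTCGCGAAggttcctga
GINS2, chr16:85688967-85688996, minus strand: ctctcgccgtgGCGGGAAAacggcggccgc
MCM3, chr6:52284898-52284927, minus strand: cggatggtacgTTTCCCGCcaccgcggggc
PCNA, chr20:5126663-5126692, minus strand: cagcgtcagggGCGGGAAAaggcgtgcgtt

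The amino acid response element reads forward in ASNS and as its reverse complement in CHAC1. HSPA8 holds a pair of separate heat shock elements, and in CHORDC1 the printed element overlaps further matches. ASNS and CHAC1 were called higher, and the other 5 genes were called lower. Matches also lay in members that were not called, among them ATF3, which was lower, and the replication genes E2F2, MCM6 and E2F1.

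Genes of the ATF4 amino acid response rose together. Of 25 tested members 15 were called higher and none lower, and 23 passed the moderated test as higher against 2 as lower, with a list median of 1.51. ASNS, asparagine synthetase (ENSG00000070669, chromosome 7, 97851677 to 97872542), stood at 33.9, 40.5 and 40.3 CPM in wild type and 467, 462 and 486 CPM in No gRNA. Its log2 fold change was 3.63 (SE 0.06, adjusted p = 2.20e-10). CHAC1, which degrades glutathione, went from 4.38, 4.53 and 5.24 CPM to 65.9, 60.0 and 62.5 CPM (log2 fold change 3.73, adjusted p = 4.44e-08). DDIT4, an inhibitor of mTORC1, went from 46.7, 44.7 and 44.7 CPM to 361, 345 and 359 CPM (log2 fold change 2.97, adjusted p = 2.20e-10). In each of these genes every No gRNA library lay far above every wild type library.

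The members fall into several roles. Among transporters, SLC7A11, which imports cystine, rose by 2.28 from 50.3 to 245 CPM. Among sensors of amino acid supply, SESN2 rose by 2.83 from 7.67 to 54.5 CPM. Members beyond the naming rule were picked after their values were seen: the pseudokinase TRIB3 rose by 2.80 to 176 CPM, and PSAT1 and MTHFD2, enzymes of serine and one-carbon metabolism, rose by 1.37 and 1.42. The ATF4 transcript itself averaged 326 ± 2.63 CPM in wild type and 441 ± 15.2 CPM in No gRNA (SD, n = 3 each), a log2 fold change of 0.43 that passed the moderated limma test (adjusted p = 3.67e-07). The 2 members lower by that test were the ATF family genes ATF3 and ATF5, at -0.89 and -1.26.

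Stress genes of the endoplasmic reticulum were also higher. 6 of 21 unfolded protein response genes were called higher and none lower, 16 passed the moderated test as higher, and the median was 0.65. The sensor gene ERN1, which encodes IRE1, went from 23.5, 17.5 and 26.8 CPM to 118, 92.5 and 89.7 CPM (log2 fold change 2.15, adjusted p = 6.75e-04). XBP1, the transcription factor that IRE1 activates by splicing, went from 69.1, 68.7 and 69.9 CPM to 284, 279.8 and 288 CPM (log2 fold change 2.04, adjusted p = 7.17e-08). DDIT3, which encodes the proapoptotic factor CHOP, rose by 2.11 and the chaperone gene DNAJB9 by 1.81, a call that DNAJB9 lost without wild type replicate 3. XBP1 and ERN1 replicates did not overlap between the groups, and gene-level counts do not separate spliced from unspliced XBP1.

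A list of 25 p53 target genes had 5 members called higher and none lower, with a median of 0.001. By the moderated test 8 were higher, 4 were lower and 13 did not pass. SESN2, given above, also stands on this list, and a part of p53 was not tested. GDF15, a stress cytokine, rose by 3.43 to 65.5 CPM, the proapoptotic BBC3 rose by 2.36 to 17.5 CPM, and the growth arrest gene GADD45A rose by 1.93 to 141 CPM.

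Secreted inflammatory ligands rose in No gRNA cells. 12 of 19 cytokine and chemokine genes were called higher, 18 passed the moderated test as higher and none as lower, and the median was 1.49. IL1A, an alarmin cytokine (ENSG00000115008, chromosome 2, 112773925 to 112784493), stood at 23.3, 28.8 and 27.6 CPM in wild type and 190.1, 170.4 and 184 CPM in No gRNA (log2 fold change 2.77, SE 0.08, adjusted p = 7.21e-08). IL1B stood at 109, 109 and 103 CPM and 485, 480.0 and 512 CPM (log2 fold change 2.21, adjusted p = 1.05e-08). Both genes were higher in every No gRNA library, without overlap. CCL20, a chemokine for memory and dendritic cells, rose by 2.78 to 7.99 CPM. IL24 varied more, from 14.2, 3.28 and 7.64 CPM to 45.8, 40.8 and 62.4 CPM, and its call was lost in 6 of 16 alternatives.

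NF-kB regulators and targets showed 7 of 18 genes called higher and a median of 0.55. PTGS2, the inducible cyclooxygenase, went from 10.9, 11.9 and 12.7 CPM to 89.1, 96.2 and 90.6 CPM (log2 fold change 2.95, adjusted p = 4.44e-08). IRAK2, a kinase of interleukin-1 receptor signalling, rose by 1.94, and the feedback inhibitor TNFAIP3 and the adaptor TRAF1 rose by 1.52 and 1.52. Immune checkpoint ligands had 1 called member of 12, ICOSLG, which rose by 1.41 to 26.7 CPM and lost its call without No gRNA replicate 1 or any one wild type library.

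Ligands of the EGF receptor rose with its feedback inhibitor. 4 of 12 members of the ERBB list were called higher, 8 passed the moderated test as higher and none as lower, and the median was 1.03. ERRFI1, which binds and inhibits EGFR, went from 449, 469.7 and 459.7 CPM to 2382, 2395 and 2381 CPM (log2 fold change 2.38, SE 0.02, adjusted p = 1.08e-11). AREG, which encodes amphiregulin, went from 9.18, 10.2 and 10.1 CPM to 68.1, 59.5 and 61.9 CPM (log2 fold change 2.68), while EREG and HBEGF rose by 1.47 and 1.29. The receptor EGFR averaged 473 ± 18.4 CPM in wild type and 896 ± 36.3 CPM in No gRNA (SD, n = 3 each), a change of 0.92 that passed the moderated limma test (adjusted p = 2.87e-08) and not TREAT. EGFR was picked after its value was seen.

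The AP-1 and immediate early genes split. Of 28 tested, 2 were called higher and 2 lower, with 16 and 8 past the moderated test. FOS and FOSB were the falls, given above. DUSP6, a phosphatase that switches off ERK, rose from 505, 512 and 533 to 1328, 1288 and 1339 CPM, and PHLDA1 rose from 800.5, 806 and 788 to 1997, 1907 and 1859 CPM. The Notch ligand JAG1 rose by 2.43 from 107 to 574 CPM, whereas the Notch target HES1 fell by 1.26 (adjusted p = 0.0382), a call lost in 12 of 16 alternatives.

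Some genes of the matrix and of its receptors rose. Mesenchymal and matrix glycoproteins had 2 of 25 genes called higher, with 13 higher, 3 lower and 9 not past the moderated test. Collagens had 1 of 22 called higher, with 10 higher, 1 lower and 11 not past it. Over all tested genes 2.33% were called higher, and 26.2% passed the moderated test as higher. FN1 (fibronectin) went from 263, 224 and 236 CPM to 1497, 1428 and 1310 CPM (log2 fold change 2.55, SE 0.11, adjusted p = 3.10e-06), and LOX, which crosslinks collagen, from 148, 154 and 152 CPM to 498, 509 and 493 CPM (log2 fold change 1.72). 5 of 19 proteases and inhibitors of the matrix were called higher with a median of 1.00, among them the plasminogen activators PLAU, from 550.4 to 1845 CPM, and PLAT, from 364 to 1332 CPM. MMP10 and MMP2 rose by 3.47 and 2.52 from wild type means of 0.593 and 1.18 CPM. 5 of 18 integrin genes were called higher with a median of 0.92, including ITGB3 with 2.90 and ITGA2 with 1.55. The integrin count fell to 3 when either No gRNA replicate 1 or 2 or any single wild type library was left out.

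The TGF-beta list had 6 of 28 members called higher, 18 past the moderated test as higher and 6 as lower. The ligand gene INHBA (activin A) went from 41.4, 44.1 and 48.8 CPM to 218, 238 and 219 CPM (log2 fold change 2.33, adjusted p = 2.17e-07). BMP2 rose by 2.23 to 11.6 CPM, and the transcription factor BHLHE40 by 2.11 to 122 CPM. DKK3, a secreted protein related to WNT antagonists, rose by 2.78 from 3.62 to 24.9 CPM and was the only called member of the WNT list of 25 tested genes. YAP and TEAD targets had no called member among 24, although 15 passed the moderated test as higher against 2 as lower, with CCN1 at 0.58.

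Part of the interferon-stimulated genes rose. 5 of 43 were called higher, 25 passed the moderated test as higher and 3 as lower, and the median was 0.60. GBP2, an interferon-inducible GTPase, went from 6.05 ± 0.0655 CPM (SD, n = 3) to 47.6, 52.4 and 46.2 CPM (log2 fold change 3.00, adjusted p = 2.22e-06), and OASL, an antiviral enzyme homologue, from 11.2, 11.8 and 11.8 CPM to 34.4, 35.1 and 36.0 CPM (log2 fold change 1.60). RSAD2 (viperin) rose by 2.49, a call lost without wild type replicate 2 or 3, and the exonuclease ISG20 by 2.15. The sensor adaptor STING1 rose by 1.52, from 26.1 to 74.6 CPM. Of 14 complement genes 2 were called higher, 9 passed the moderated test as higher and 3 as lower. CFB and C1R rose by 3.09 and 2.85, to 12.7 and 25.7 CPM. MHC class I presentation had no called gene among 17, with HLA-E at 0.80 and a median of 0.12.

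Some genes of the metabolic and hypoxia lists were called higher. 4 of 33 glycolysis and hypoxia genes were called higher and 1 lower, with a median of 0.20. Over all tested genes 2.33% were called higher and 1.27% lower. The 4 include CA9, given above. VEGFA, the angiogenic growth factor, went from 107, 102 and 111 CPM to 418, 447 and 470.3 CPM (log2 fold change 2.06, adjusted p = 1.02e-06). NDRG1 and ALDOC, also known as hypoxia targets, rose by 1.93 and 2.04. SCD, the stearoyl-CoA desaturase, rose by 1.51 to 302 CPM. Autophagy and lysosome genes had 3 called members of 25, among them GABARAPL1 with 1.69 and NPC1 with 1.45.

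DNA replication genes fell throughout. All 48 genes tested were lower by the moderated test, 20 of them were called by TREAT, and the median log2 fold change was -1.25. ORC1, a subunit of the origin recognition complex (ENSG00000085840, chromosome 1, 52372829 to 52404423), stood at 28.3, 24.6 and 28.0 CPM in wild type and 4.49, 4.57 and 5.71 CPM in No gRNA (log2 fold change -2.45, SE 0.12, adjusted p = 7.54e-06). CCNE2, the cyclin of the G1/S transition, went from 59.9, 69.3 and 64.0 CPM to 13.2, 8.98 and 9.91 CPM (log2 fold change -2.61, adjusted p = 1.70e-05). GINS2, a subunit of the replicative helicase, went from 48.6, 44.9 and 44.0 CPM to 10.3, 7.11 and 9.57 CPM (log2 fold change -2.36). MCM10, which helps activate that helicase, fell by 2.33. The 6 libraries separated without overlap in all 48 genes, against 30.7% of all tested genes lying below wild type in every No gRNA library.

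Most mitotic genes fell as well. 9 of 48 were called lower, 39 passed the moderated test as lower and none as higher, and the median was -0.76. KIF20A, a kinesin of cytokinesis, went from 222, 211 and 213 CPM to 52.6, 51.7 and 44.3 CPM (log2 fold change -2.12, adjusted p = 2.17e-07). CDC20, the activator of the anaphase-promoting complex, fell by 1.40 and the scaffold protein ANLN by 1.42. The count of called mitotic genes dropped to 5 without wild type replicate 3 or without No gRNA replicate 2. Replication-dependent histones had 8 of 31 called lower and 1 higher, with a median of -1.18. H4C9 fell from 127, 129 and 125 CPM to 40.5, 40.2 and 38.0 CPM. Histone genes are near-identical copies, so reads may be divided among them.

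Heat shock genes fell. All 13 heat shock genes tested were lower by the moderated test, 6 were called by TREAT, and the median was -1.01. HSPA8 (ENSG00000109971, chromosome 11, 123057489 to 123063230) stood at 4142, 3958 and 3935 CPM in wild type and 459.8, 515 and 499 CPM in No gRNA, and its log2 fold change was -3.03 (SE 0.04, adjusted p = 5.08e-11). HSPE1, the mitochondrial cochaperonin, went from 147, 149 and 142 CPM to 43.6, 36.9 and 43.6 CPM (log2 fold change -1.83). DNAJA1, a cochaperone of HSP70, fell by 1.55 and CHORDC1, a partner of HSP90, by 1.58. HSPA5, the HSP70 of the endoplasmic reticulum, instead rose from 842 to 1997 CPM (log2 fold change 1.25, adjusted p = 4.49e-05). HSPA5 was picked after its value was seen.

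Large housekeeping groups shifted down by less than 2-fold. 73 of 83 ribosomal protein genes were lower by the moderated test and 3 higher, none was called, and the median was -0.35, with RPS7 from 1421 to 792 CPM. Together they took 6.187% to 6.271% of the counts in wild type libraries and 4.806% to 5.107% in No gRNA libraries. Nuclear genes of oxidative phosphorylation were lower by the moderated test in 69 of 73 cases, 4 of them called, with a median of -0.70. ATP5MC1, a subunit of the ATP synthase ring, went from 167, 162 and 166 CPM to 50.2, 50.0 and 52.8 CPM (log2 fold change -1.69, adjusted p = 4.33e-06). Proteasome subunits were lower in 28 of 31 cases with no call and a median of -0.57. Of 13 mitochondrially encoded genes 7 were lower by the moderated test, with a median of -0.46. The translation initiation and elongation list did not lean one way, with 8 of 19 genes higher and 7 lower by the moderated test and a median of 0.001. Its only called member was EIF2S1, the alpha subunit of the initiation factor whose phosphorylation drives ATF4 translation, which fell by 1.26 from 393 to 165 CPM. The nucleolar protein gene NOP56 fell by 1.25.

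Genes on the list of KRAB corepressor machinery were more often lower than higher. 15 of 29 corepressor genes were lower and 3 higher by the moderated test, none was called, and the median was -0.25. By that test 27.6% of all tested genes were lower and 26.2% higher. Against wild type the list median was -0.33 in set 1 and -0.04 in set 2. TRIM28, the direct partner of KRAB, averaged 458 ± 15.4 CPM in wild type and 254 ± 6.93 CPM in No gRNA (SD, n = 3 each), a log2 fold change of -0.85 (moderated limma adjusted p = 3.15e-09), and was picked after its value was seen. The histone methyltransferase genes SUV39H1, SUV39H2 and EHMT2 changed by -1.30, -1.10 and -1.19, which passed the moderated test and not TREAT. Among 464 zinc finger genes of the ZNF and ZFP families, 4 were called higher, ZNF10 included, and 3 lower, with a median of 0.06. Over all tested genes the called shares were larger, 2.33% higher and 1.27% lower. The higher count of zinc finger genes dropped to 2 without No gRNA replicate 1 or any one wild type library. Their lower count dropped to 1 without any one library except wild type replicate 2. UHRF1, which directs maintenance DNA methylation and follows the cell cycle, fell from 149.9, 144 and 145 CPM to 49.2, 46.2 and 44.5 CPM.

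Epithelial junction genes were partly higher with the empty vector. 4 of 33 were called higher and none lower, 15 passed the moderated test as higher, and the median was 0.54. CLDN1 (claudin 1) went from 30.4, 31.2 and 29.8 CPM to 152, 154 and 144 CPM (log2 fold change 2.30, adjusted p = 1.45e-07), and JUP (plakoglobin) from 22.4, 18.8 and 16.6 CPM to 60.1, 59.7 and 63.6 CPM (log2 fold change 1.68). SPINT1, a protease inhibitor, and F11R, a tight junction protein, rose by 2.17 and 1.33, F11R losing its call without any one library but No gRNA replicate 2. In set 2, where ZEB1 was silenced, they averaged 117 and 314 CPM against 16.1 and 64.8 CPM in No gRNA. KRT8, a keratin of simple epithelia, fell from 657, 638 and 654 CPM to 266, 264 and 277 CPM. No gene of 8 EMT transcription factors was called.

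**Figure D2:**
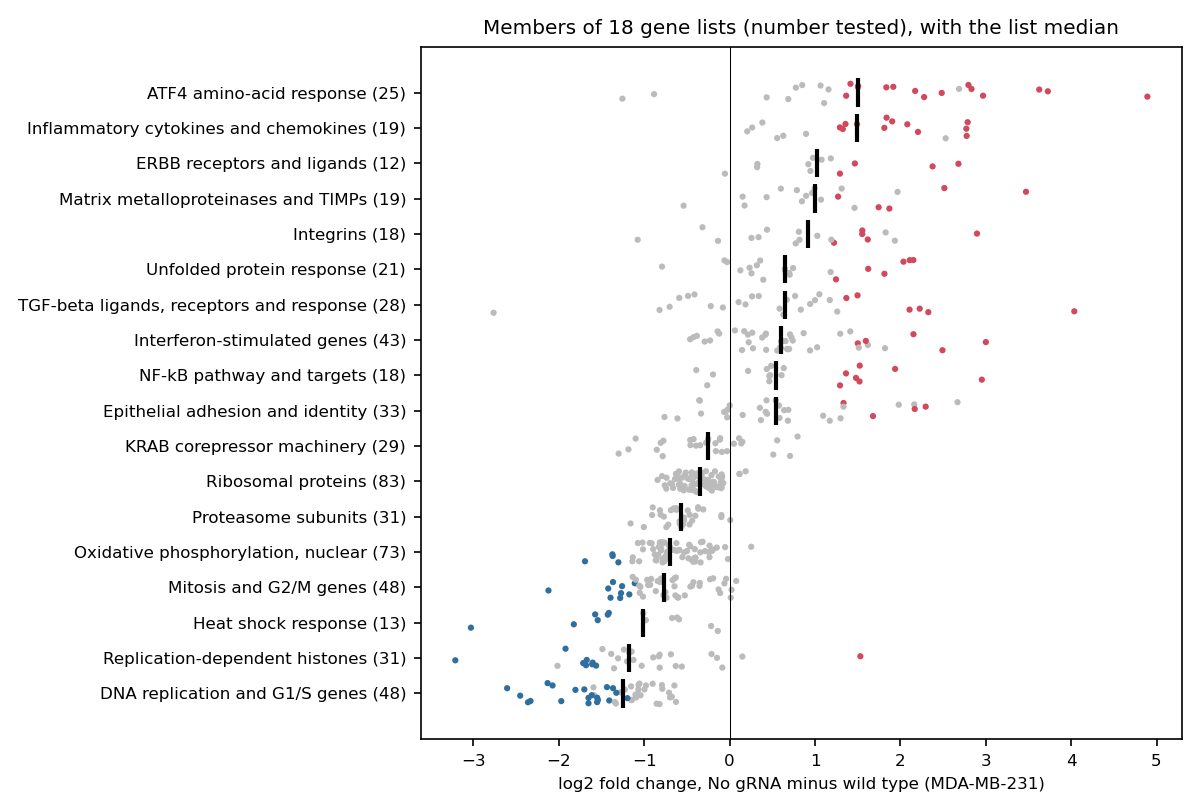
Log2 fold change of No gRNA against wild type MDA-MB-231 cells (x axis) for the tested members of 18 gene lists (y axis, number tested in parentheses), 1 point per gene, red where called higher, blue where called lower and grey where not called, with a black bar at the list median. The ATF4 list has the highest median, 1.51, and the DNA replication list the lowest, -1.25.

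The other 2 vector-carrying groups of the same line were laid side by side with No gRNA. All 3 comparisons share the wild type libraries. The ATF4 list had medians of 1.51 for No gRNA, 1.70 for set 1 and 0.02 for set 2, with 15, 17 and 0 members called higher, where 5.04% of all genes were called higher in set 1 and 1.22% in set 2. ASNS averaged 564 CPM in set 1 and 35.8 CPM in set 2, beside 38.2 CPM in wild type. TXNIP averaged 2168 CPM and 89.2 CPM, and IL1A 437 CPM and 41.3 CPM. Set 2 thus lay near wild type for ASNS and TXNIP, while set 1 lay above No gRNA for ASNS, TXNIP and IL1A. The cytokine list had medians of 1.49, 0.93 and -0.59 in No gRNA, set 1 and set 2, with 12, 8 and 0 members called higher. In set 2, 2 members were called lower than wild type, against 0.223% of all genes. Tested directly, 12 of 19 were called lower in set 2 than in No gRNA, against 2.40% of all genes.

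Among the falls, the DNA replication list had medians of -1.25, -1.80 and -0.21 in No gRNA, set 1 and set 2, with 20, 37 and 0 members called lower, against 3.37% and 0.223% of all genes in set 1 and set 2. HSPA8, at 491 ± 28.2 CPM in No gRNA, averaged 648 ± 21.7 CPM in set 1 and 2546 ± 42.0 CPM in set 2 (SD, n = 3 each). Over all genes 1323 (8.42%) were called between set 1 and wild type and 227 (1.44%) between set 2 and wild type. Of the 367 genes called higher in No gRNA, 248 were also called higher in set 1 and 39 in set 2. Of the 199 called lower, 162 were also called lower in set 1 and 9 in set 2. These counts rest on the shared wild type libraries. Tested directly, set 2 differed from No gRNA in 651 genes (4.14%), of which 378 were lower in set 2. On the ATF4 list 14 members were called lower in set 2 than in No gRNA (2.40% of all genes) and on the replication list 15 higher (1.74% of all genes).

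Some changes appeared in each of the vector-carrying MDA-MB-231 groups. Going from wild type to No gRNA, set 1 and set 2, FOS averaged 278, 36.7, 36.4 and 9.96 CPM and FOSB 120.2, 4.96, 10.8 and 1.89 CPM. MIR23AHG averaged 34.5, 5.12, 3.77 and 4.28 CPM. Among rises, PLAU averaged 550.4, 1845, 2522 and 1435 CPM, and INHBA 44.8, 225, 784 and 288 CPM. The ribosomal protein list had medians of -0.35, -0.36 and -0.32 in No gRNA and the other 2 groups. These changes did not extend alike to SUM159 No gRNA, where the ribosomal list median was 0.48. FOS, FOSB, MIR23AHG, PLAU and INHBA all differed in their No gRNA minus wild type change between the lines by TREAT.

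**Figure D3:**
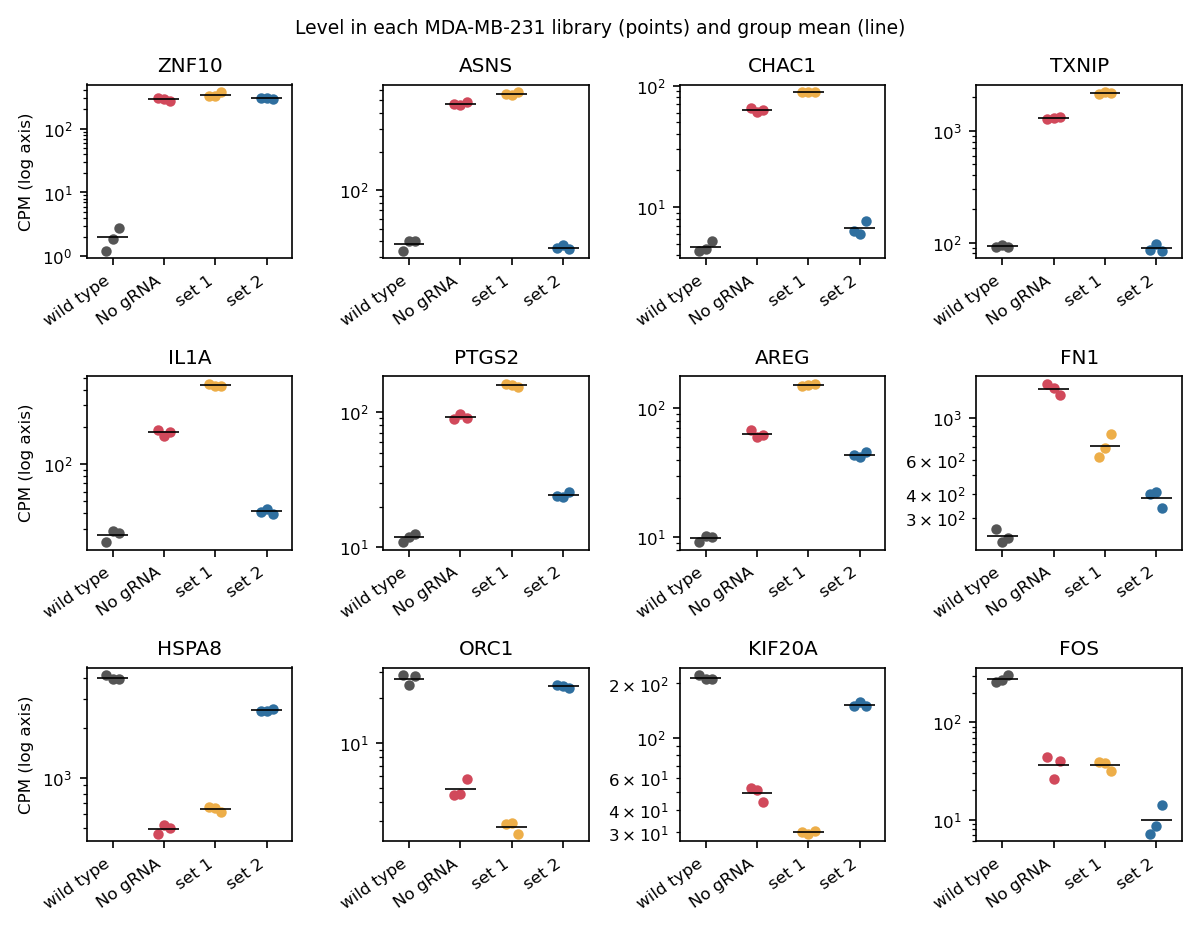
CPM of 12 genes on log axes in each of the 12 MDA-MB-231 libraries, 1 panel per gene, with points for the 3 libraries of wild type (grey), No gRNA (red), set 1 (yellow) and set 2 (blue) and a line at each group mean. ZNF10 lies between 269 and 369 CPM in every vector-carrying library, while set 2 lies close to wild type for ASNS, CHAC1, TXNIP and ORC1 and below No gRNA for FOS.

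Most genes called in MDA-MB-231 were not called with the same vector in SUM159. Of the 367 genes called higher in MDA-MB-231, 34 were also called higher in SUM159, which is 9.26% of that list and 18.2% of the 187 genes called higher in SUM159 (1.09% of 17182 genes tested there). Another 17 of the 367 were called lower in SUM159. For the falls, 6 genes were shared, 3.02% of 199 and 7.59% of 79 (0.460%), and 0 were called the opposite way. These controls are independent between the lines. The shared rises included ZNF10, CA9, NDRG1, GABARAPL1, WIPI1, C1R, CFB, RSAD2 and OASL. WIPI1 lost its call without wild type replicate 2 or 3 or No gRNA replicate 3. They also included LCN2, an iron-binding secreted protein, and ASS1, the arginine synthesis enzyme, both picked after their values were seen. LCN2 rose from 4.92 to 31.0 CPM in MDA-MB-231 and by 4.49 on the log2 scale in SUM159, and ASS1 from 15.4 to 70.3 CPM and by 1.69.

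All 6 shared falls were named after their values were seen. RRM2 and TYMS, enzymes of nucleotide supply, averaged 554 and 375 CPM in wild type MDA-MB-231 and 126 and 164 CPM in No gRNA. The helicase subunit gene MCM4 and the ligase gene LIG1 went from 282 to 71.7 and from 87.3 to 32.4 CPM. HSP90AA1, the inducible HSP90, went from 3376 to 1256 CPM and changed by -1.63 in SUM159. ACTB (beta-actin), often used as a reference transcript, went from 5919, 5712 and 5890 CPM to 2757, 2697 and 2616 CPM (log2 fold change -1.12, adjusted p = 0.0132) and changed by -1.50 in SUM159.

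The difference between the lines was tested in 1 fit of 24 libraries, where line, medium, puromycin dose and sequencing run cannot be told apart. The No gRNA minus wild type difference, called the effect of the vector, differed between the lines by TREAT for 451 of 17182 genes (2.62%). Of these, 348 (2.03%) had the higher effect in MDA-MB-231 and 103 (0.599%) the lower. Within MDA-MB-231 most genes called in No gRNA were not called in set 2, which carries the same vector. On the ATF4 list 17 of 25 members and on the cytokine list 13 of 19 had the higher effect in MDA-MB-231, and none of either list the lower. The list medians in SUM159 were -0.19 and -1.39. IL1A changed by -2.51 in SUM159 (difference 5.35, adjusted p = 8.59e-18) and ASNS by -0.30 (difference 3.99, adjusted p = 1.69e-15). Interferon-stimulated genes had a median of 1.06 in SUM159 and 7 of 43 had the lower effect in MDA-MB-231 against 1 the higher.

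Replication genes were lower in both lines. Their median in SUM159 was -0.85, 42 of 48 members passed the moderated test as lower there (20.3% of all genes), and 3 had the lower effect in MDA-MB-231 by TREAT and 0 the higher. The ribosomal protein genes had a median of 0.48 in SUM159, and the difference between the lines passed the moderated test for 81 of 83, all with the lower effect in MDA-MB-231 (17.4% of all genes). Ribosomal protein genes took 6.045% to 6.243% of counts in the SUM159 wild type libraries of the first run, 8.55% to 9.042% in SUM159 No gRNA and 9.979% to 10.305% in the SUM159 wild type libraries of the second run, so this share also differed between runs of 1 group. The part of the run in the SUM159 values was not tested. HSPA8, which fell by 3.03 on the log2 scale in MDA-MB-231, changed by 0.58 in SUM159 (difference -3.54, adjusted p = 4.44e-16).

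**Figure D4:**
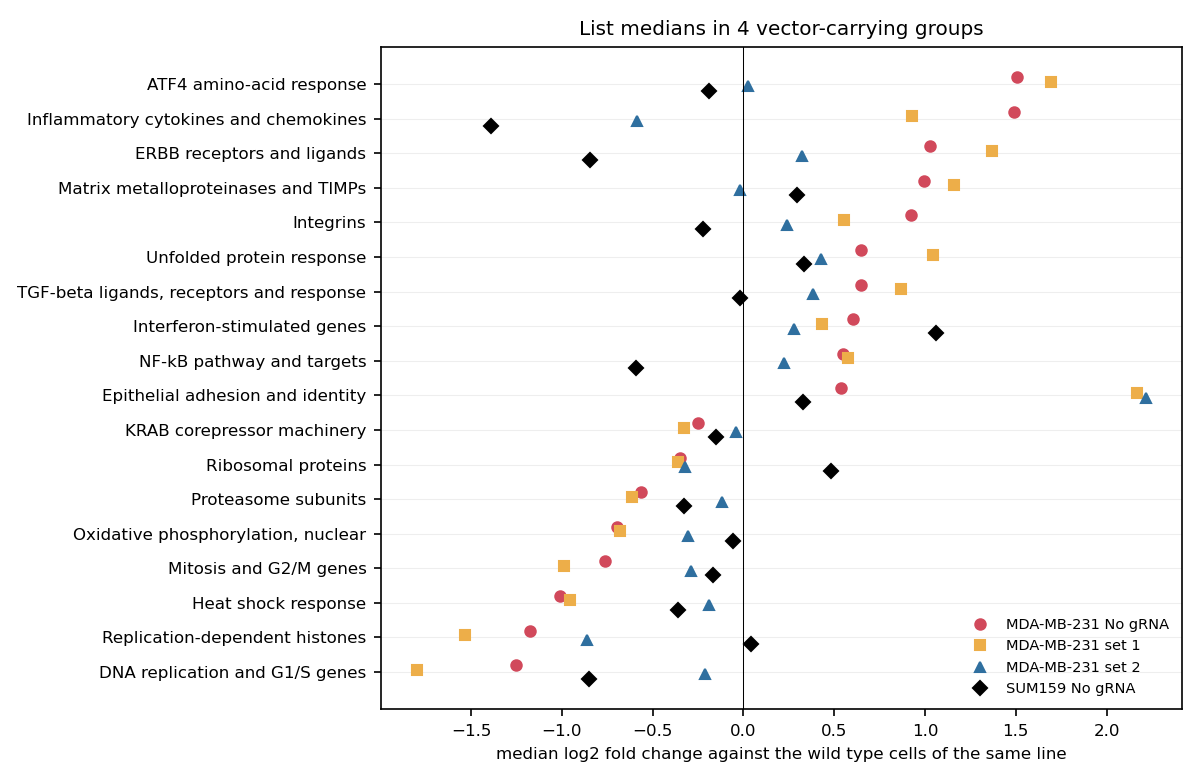
Median log2 fold change (x axis) of 18 gene lists (y axis) in 4 vector-carrying groups, each against the wild type cells of its line: MDA-MB-231 No gRNA (red circles), set 1 (yellow squares), set 2 (blue triangles) and SUM159 No gRNA (black diamonds). For the ATF4 list the medians are 1.51, 1.70, 0.02 and -0.19, and for the DNA replication list -1.25, -1.80, -0.21 and -0.85.

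**Figure D5:**
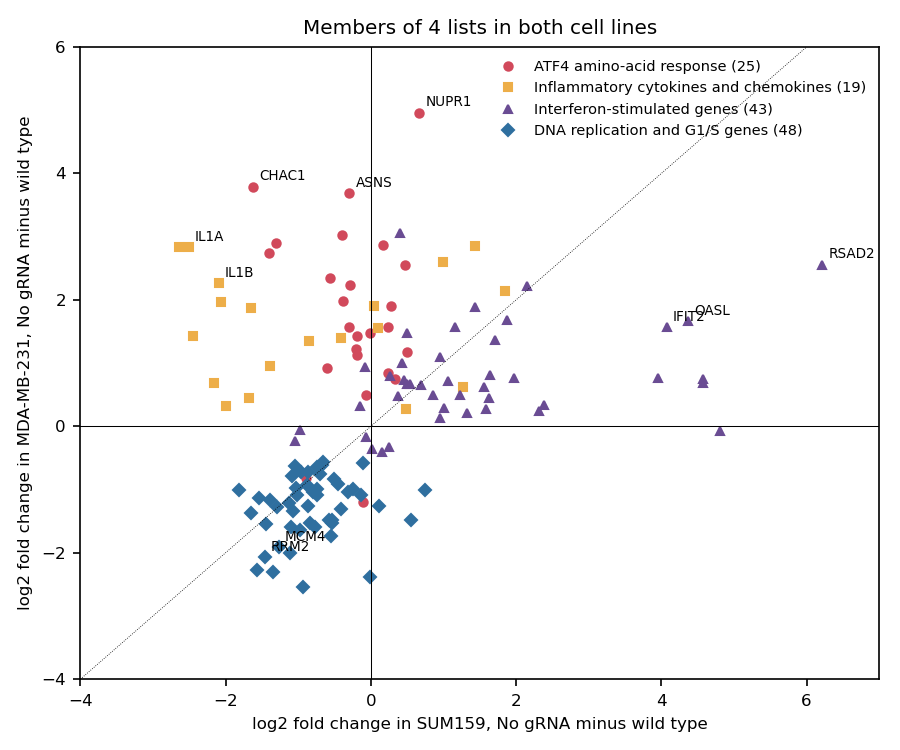
Log2 fold change of No gRNA against wild type in MDA-MB-231 (y axis) and in SUM159 (x axis), from the 24-library fit, for the tested members of 4 lists (1 point per gene, number in the key), with the dotted line at equal change. Replication genes lie mostly below 0 in both lines, ATF4 genes lie mostly above 0 in MDA-MB-231 with a median of -0.19 in SUM159, and the highest interferon-stimulated genes lie below the dotted line.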

How the data were processed

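Total RNA of 3 libraries per group was sequenced as 50 bp single-end reads. The authors quantified transcripts with Salmon against GRCh38 and deposited estimated counts per gene summarised with tximport, and the Salmon version is not given in the sources used here. Short single-end reads limit how near-identical copies are told apart. Library totals were 15461200 to 17288989 in the 6 libraries compared.

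Genes were kept with filterByExpr at a minimum count of 10 in R 4.3.3, scaled by TMM with edgeR 4.0.16 and fitted by voom in limma 3.58.1 on the 12 MDA-MB-231 libraries. TREAT at a log2 fold change of 1 and the moderated test against 0 were adjusted by Benjamini-Hochberg over 15721 genes, with calls at 0.05. The difference between the lines used 1 fit of 24 libraries. Counts were rounded for edgeR and DESeq2 1.42.0, which were alternatives. The spread was pooled over the groups of the fit, also where a library was left out.

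Named genes were the 12 largest called rises and falls without overlap and with a mean of at least 50 counts in the higher group, ZEB1 and ZEB1-AS1, and in each gene list up to 4 called members, or up to 3 past the moderated test where none was called. The members and lists were chosen with earlier results of these data known. The scripts were tested on simulated data. Some genes are not reported here. The limma p-values rest on the spread between libraries within groups, pooled over the groups of a fit and moderated across genes.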

Additional observations from a re-analysis of the deposited data

Results flagged for a closer look

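The effect of the vector (No gRNA minus wild type) was compared between MDA-MB-231 and SUM159 in 1 limma fit of 24 libraries, and TREAT called the difference for 451 genes, 348 with the higher effect in MDA-MB-231. These include 64 of the genes named by rule, 49 with the higher and 15 with the lower effect in MDA-MB-231. Line, medium, puromycin dose and sequencing run cannot be told apart in this difference. The values below are differences of the 2 log2 fold changes, MDA-MB-231 minus SUM159.

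Among the amino acid and endoplasmic reticulum stress genes, the difference was 3.99 for ASNS, 5.41 for CHAC1, 3.43 for DDIT4, 2.91 for SLC7A11, 4.21 for SESN2, 2.72 for ERN1, 2.60 for XBP1, 2.46 for DDIT3, 2.51 for GADD45A and 2.46 for BBC3. For cytokines, NF-kB targets and interferon-induced genes with the higher effect in MDA-MB-231, it was 7.03 for TNFSF15, 5.48 for CCL20, 5.35 for IL1A, 4.37 for IL1B, 5.41 for PTGS2, 2.73 for IRAK2, 2.82 for TNFAIP3, 3.62 for TRAF1, 2.66 for GBP2 and 2.45 for ICOSLG. Receptor ligands and signalling genes gave 3.80 for AREG, 2.88 for EREG, 3.89 for HBEGF, 3.61 for ERRFI1, 2.89 for DUSP6, 3.37 for PHLDA1, 3.72 for JAG1, 5.56 for INHBA, 2.56 for BMP2, 2.04 for BHLHE40, 2.73 for DKK3 and 1.38 for AJUBA. Matrix, adhesion and junction genes gave 2.09 for FN1, 3.15 for LTBP1, 2.79 for MMP2, 3.80 for PLAU, 2.75 for ITGB3, 2.21 for ITGA10, 1.97 for ITGA2 and 3.45 for CLDN1. The remaining genes with the higher effect in MDA-MB-231 gave 3.30 for TXNIP, 4.48 for ADM2, 4.30 for NUPR1, 5.93 for SLITRK6, 4.48 for VLDLR-AS1, 1.72 for SCD, 2.57 for VEGFA, 1.71 for SOX4 and 1.41 for KLF4. The effect was lower in MDA-MB-231 for genes that fell there, with -4.57 for FOSB, -4.41 for FOS, -3.54 for HSPA8, -2.29 for FAM111B, -2.43 for DDX12B, -2.40 for MIR23AHG, -2.38 for ORC1, -2.21 for KIF20A, -1.32 for KRT8, -3.00 for H2BC12L, -2.02 for H4C9, -1.31 for RPL24 and -1.58 for HES1. The antiviral genes RSAD2 and OASL rose in both lines with the lower effect in MDA-MB-231, at -3.66 and -2.71. DDX12B and H2BC12L have near-identical copies, and SLITRK6, NUPR1 and VLDLR-AS1 rest on few reads in wild type MDA-MB-231 cells.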

How the results depend on the processing

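The count of 566 called genes was 549 to 558 under 3 other scalings, 568 without a filter, 562 with a filter at 1 CPM, 507 with only the 6 libraries compared, 561 with quality weights, 776 by edgeR and 549 by DESeq2. The looser criteria gave 5083 genes for TREAT at the log2 of 1.2 and 2308 for genes past the moderated test whose change exceeded 2-fold, which use smaller thresholds by construction. Leaving out 1 library gave 428 to 488 called genes, 7636 to 7862 past the moderated test and 390 to 429 differing between the lines. With the replicate number as a block, 535 genes were called, 8279 passed the moderated test and 448 differed between the lines. The numbers do not pair the samples, since deviations from the group means correlated at 0.0126, -0.0115 and 0.012 between same-numbered libraries. The upper quartile scaling moved the median of all genes to 0.054. Of 157 genes named by rule that passed a test, 131 kept their call in every alternative run, 26 lost it in at least 1 and 0 turned direction. The median of the fatty acid synthesis list, -0.134, was 0.105 without No gRNA replicate 3 and -0.145 without replicate 2, and the cause was not tested. The ZEB1 difference of 0.597 did not move with a prior count of 0.5. For ZNF10 that prior count, added after seeing the data, gave 7.23 in place of 7.16. Genes near 0 in wild type are limited by depth.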

Other observations

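Genes linked in the literature to lung and bone metastasis of MDA-MB-231 sublines had 6 of 27 members called higher and none lower, with a median of 0.82. The called members were LTBP1, PTGS2, MMP2, HBEGF, EREG and PLAAT4, of which the first 5 also stand in the lists above. In the apoptosis list the antiapoptotic BCL2A1 rose by 2.36 from 1.53 to 7.87 CPM, beside the proapoptotic BBC3. The called collagen gene was COL6A2, whose change of 1.75 lost its call without wild type replicate 3 or No gRNA replicate 2. TXN (thioredoxin), the partner of TXNIP, went from 614, 609.8 and 597 CPM to 282, 276 and 279 CPM, a change of -1.12 that lost its TREAT call in 11 of 16 alternatives. The cell cycle inhibitor gene CDKN2C changed by -1.34 and lost its call in 13.

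Position along the genome was described by medians, which do not show whether called genes cluster. Chromosome medians of the log2 fold change ran from -0.068 on chromosome 16 to 0.134 on chromosome 21. Windows of 10 Mb with at least 20 tested genes had medians from -0.428 to 0.429. In 2 windows picked after their values were seen, called genes were more frequent than over all genes. The window of chromosome 6 from 20000001 had 8 of 76 genes called lower, against 1.27% of all genes. That of chromosome 19 from 40000001 had 14 of 239 called higher, against 2.33%. Of 39 HOX genes 28 were too low to test, as were 12 of 29 clustered protocadherins and 55 of 61 cancer-testis antigen genes. Of the 11 HOX genes tested, HOXB9 was called higher at 1.25 and lost its call in 9 of 16 alternatives.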
